A study of Mus musculus with 6 samples.

Results

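The Slc25a genes encode mitochondrial carriers, the proteins that move metabolites, nucleotides and cofactors across membranes, in nearly all cases the inner membrane of mitochondria. The members were taken as the protein-coding genes of the deposited table whose symbol is Slc25a followed by a number. This gave 47 of the 28987 genes in the table. They lie on 19 chromosomes, with 4 on chromosome X, and are described here in mutant bone marrow progenitors and Ly6G+ myeloid cells of mice given Mdivi-1 or vehicle.

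The RNA came from marrow of C57BL/6 mice that carry CBL and RUNX1 mutations, and was sequenced as bulk libraries. Cells of both populations and both treatment arms belonged to the mutant clone, so no comparison here has a wild-type arm. Stem and progenitor cells (HSCPs) were selected with a CD117 kit, the mutant clone was sorted from them by flow cytometry, and they gave 1 library with vehicle and 1 with Mdivi-1. Mutant cells with the neutrophil surface protein Ly6G gave 2 libraries with vehicle and 2 with Mdivi-1, a compound known as a blocker of mitochondrial division. For the alleles, their promoters, the dose, the duration and the age of the mice, nothing is given in the sources used here. Marrow came from individual mice, but no label says which mouse gave which library. A p-value here therefore reflects only how much these libraries vary, which may be technical.

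Most carriers of this family are single chains that span the membrane repeatedly and exchange one solute for another. The ADP/ATP carriers bring ADP in and let ATP out, the phosphate carrier supplies the phosphate for ATP synthesis, and other members serve the malate-aspartate shuttle, citrate export, iron uptake and the entry of folate, S-adenosylmethionine, NAD+ and glutathione. Close relatives often carry the same solute and differ in the tissue where they are used. In marrow, the mitoferrin Slc25a37 and the glycine carrier Slc25a38 are known for their part in heme synthesis of red cell precursors.

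Levels are given as TPM, a share of the RNA pool corrected for gene length. Values can be compared between genes of a library, while between libraries a share also moves with the other genes. S100a8 and S100a9 alone took 7.06% and 7.7% of TPM in the HSCP libraries and 19.7% to 20.9% in Ly6G+, and values scaled in other ways are given where they change a result. The number of genes at 1 TPM or more ranged from 11456 to 11930 per library. The labels were checked against markers: Kit, which encodes CD117, stood at 64.9 and 72.2 TPM in HSCP and at 8.73 to 14.1 TPM in Ly6G+, and Ly6g at 90.1 and 187 TPM in HSCP and 642 to 840 TPM in Ly6G+. The HSCP libraries therefore held Ly6g transcripts too. In bulk samples, fewer cells of a type and less RNA per cell cannot be told apart.

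ADP/ATP carriers and the phosphate carrier made up a large part of the family's RNA in both populations. Slc25a5, an ADP/ATP carrier of growing cells (chromosome X, 36795651 to 36798807, plus strand, mm10), stood at 734 TPM with vehicle and 871 TPM with Mdivi-1 in HSCP. In Ly6G+ it stood at 361 and 344 TPM with vehicle and at 378 and 364 TPM with Mdivi-1. Slc25a3, the phosphate carrier (chromosome 10, 91116574 to 91124059, minus strand), stood at 451 TPM with vehicle and 474 TPM with Mdivi-1 in HSCP, and in Ly6G+ at 225 and 219 TPM with vehicle and 229 and 227 TPM with Mdivi-1. For Slc25a5 and Slc25a3 the HSCP libraries were above all 4 Ly6G+ libraries. Slc25a5 and Slc25a3 ranked first and second in each population, and together they held 55.8% and 57.5% of the family's summed TPM in HSCP against 42.3% to 45.1% in Ly6G+.

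**Figure D1:**
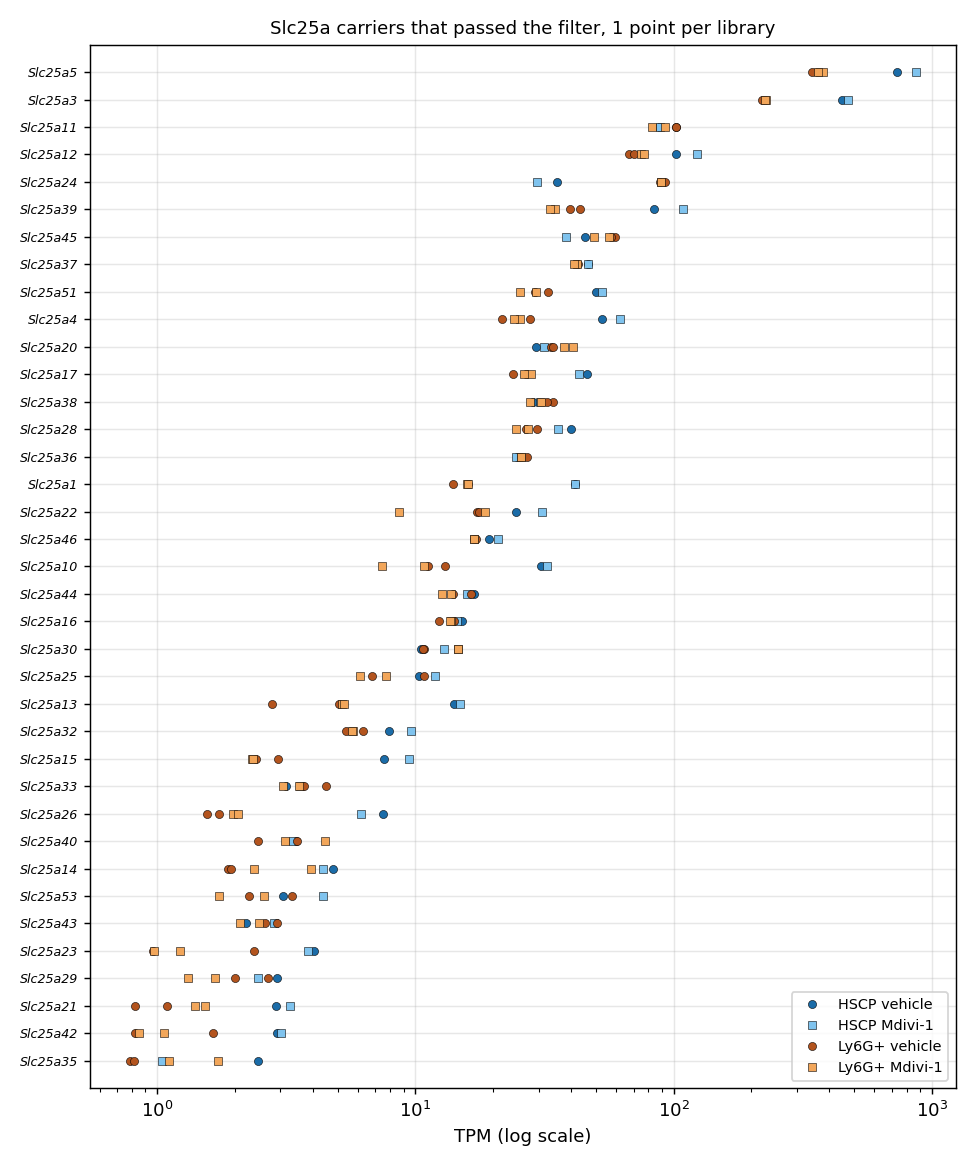
TPM of 37 of the 38 Slc25a carriers that passed the filter on low values, on a log axis, with 1 point per library (circles vehicle, squares Mdivi-1, blue HSCP, orange Ly6G+). Slc25a5 and Slc25a3 lie to the right of all other carriers in every library, and Slc25a24 is the carrier whose Ly6G+ points lie farthest to the right of its HSCP points.

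Of the 47 members, 34 reached 1 TPM and 20 reached 10 TPM in every library. One, Slc25a31, the ADP/ATP carrier known from testis, was listed at 0 in every library. The 9 members that did not pass the filter (2 or more of the compared libraries at 1 TPM or above) were Slc25a31, Slc25a2, Slc25a18, Slc25a27, Slc25a34, Slc25a41, Slc25a47, Slc25a48 and Slc25a54, and 7 of these never reached 1 TPM. Their highest value in any library was 1.41 TPM, that of Slc25a27 in HSCP vehicle. The other 38 members passed in both tests.

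The order of the remaining levels differed between populations. In HSCP, Slc25a12 came next, a calcium-regulated aspartate/glutamate carrier of the malate-aspartate shuttle, at 113 ± 14.4 TPM (SD, n = 2). Slc25a39, a carrier needed for glutathione import, followed at 96.6 ± 17.3 TPM (SD, n = 2). Slc25a12 was above Slc25a39 in each HSCP library. In Ly6G+, Slc25a11, the oxoglutarate carrier of the same shuttle, came next at 95.0 ± 9.35 TPM (SD, n = 4). Slc25a24, an ATP-Mg/phosphate carrier regulated by calcium, followed at 90.01 ± 1.98 TPM (SD, n = 4). Slc25a11 was above Slc25a24 in each Ly6G+ library except Mdivi-1 replicate 2 (82.8 against 89.8 TPM). Slc25a24 ranked 13 in HSCP and 4 in Ly6G+, while Slc25a39 ranked 4 in HSCP and 8 in Ly6G+.

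Upstream sequence is shown for 4 carriers on which the results below turn: Slc25a5 as the most abundant, Slc25a24 as the one highest in Ly6G+ relative to HSCP, the citrate carrier Slc25a1 as one of those lowest, and Slc25a30 as the carrier nearest to the threshold with Mdivi-1. The 250 bases before the RefSeq transcript start (GRCm38.p6) are written 5′ to 3′ on the gene's strand. The windows are chrX:36795347-36795596 (plus strand), chr3:109122899-109123148 (plus), chr16:17928220-17928469 (minus) and chr14:75787038-75787287 (minus), in that order. Capitals mark matches, on either strand, to the GC box GGGCGG, the E-box CACGTG and the CCAAT box CCAAT.
Slc25a5: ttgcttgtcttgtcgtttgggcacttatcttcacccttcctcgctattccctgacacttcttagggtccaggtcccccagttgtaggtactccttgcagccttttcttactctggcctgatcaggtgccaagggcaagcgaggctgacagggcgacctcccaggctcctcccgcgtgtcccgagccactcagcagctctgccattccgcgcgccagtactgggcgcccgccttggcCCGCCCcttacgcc
Slc25a24: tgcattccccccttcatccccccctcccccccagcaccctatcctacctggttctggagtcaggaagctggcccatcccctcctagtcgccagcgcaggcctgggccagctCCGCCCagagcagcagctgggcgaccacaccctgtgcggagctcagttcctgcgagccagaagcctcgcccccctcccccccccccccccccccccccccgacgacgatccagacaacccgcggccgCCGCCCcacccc
Slc25a1: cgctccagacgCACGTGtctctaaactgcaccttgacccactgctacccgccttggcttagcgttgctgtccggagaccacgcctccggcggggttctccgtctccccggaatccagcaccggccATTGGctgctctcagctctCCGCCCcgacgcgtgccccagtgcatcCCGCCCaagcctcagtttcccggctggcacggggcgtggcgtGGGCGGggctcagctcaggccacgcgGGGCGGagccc
Slc25a30: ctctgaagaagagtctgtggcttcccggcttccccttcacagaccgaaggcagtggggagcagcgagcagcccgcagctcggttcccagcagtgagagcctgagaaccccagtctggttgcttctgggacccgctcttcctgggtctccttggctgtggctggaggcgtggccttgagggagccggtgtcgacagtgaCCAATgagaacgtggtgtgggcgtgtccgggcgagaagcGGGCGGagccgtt

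The Slc25a1 window held 4 GC boxes, 1 E-box and 1 CCAAT box, against 2 GC boxes in Slc25a24, 1 in Slc25a5, and 1 GC box with 1 CCAAT box in Slc25a30. RefSeq promoter sequence, here 250 bases before to 50 after the start, was matched for 36 of the 47 members, with 46 promoters. GGGCGG occurred in 82.6% of these promoters, against 46.2% of 21263 protein-coding promoters and 35.7% of all 32851. CACGTG occurred in 17.4% of members' promoters against 7.84% and 7.15%, and CCAAT in 47.8% against 38.2% and 37.4%. The members' promoters were also richer in G and C, with a median of 59.3% against 56.3% and 52.7%, and GGGCGG holds no other letters. A match describes these letters in this window and was not tested as a binding site.

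Between populations, most carriers that moved were lower in Ly6G+ than in HSCP, and Slc25a24 was the largest exception. The test was limma on log2(TPM + 1) over all 6 libraries with treatment as a covariate, called at an adjusted p under 0.05, and changes are on that scale, which understates those of low genes. By this test, 3 of 38 members were higher in Ly6G+, 20 were lower and 15 did not pass. The libraries of the populations did not overlap in 27 of the 38, and the share of all genes without overlap was not counted. Over all 12338 genes tested, 22.2% were called higher and 50.3% lower, so the members' lower count is close to the share among all genes. The members' median log2 change was -0.50 against -0.35 for all genes. After median-of-ratios or upper-quartile scaling, 8 members were higher and 16 lower under either. Among all 12323 genes tested with median-of-ratios scaling, 4096 were called higher and 4253 lower. With upper-quartile scaling, 3921 were called higher and 4518 lower among 12329. The share of all calls that were higher went from 30.6% to 49.1% and 46.5% with these scalings, the median of all genes from -0.35 to -0.02 and -0.07, and the members' median from -0.50 to -0.19 and -0.23. All 3 higher and 16 of the 20 lower members stayed called.

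**Figure D2:**
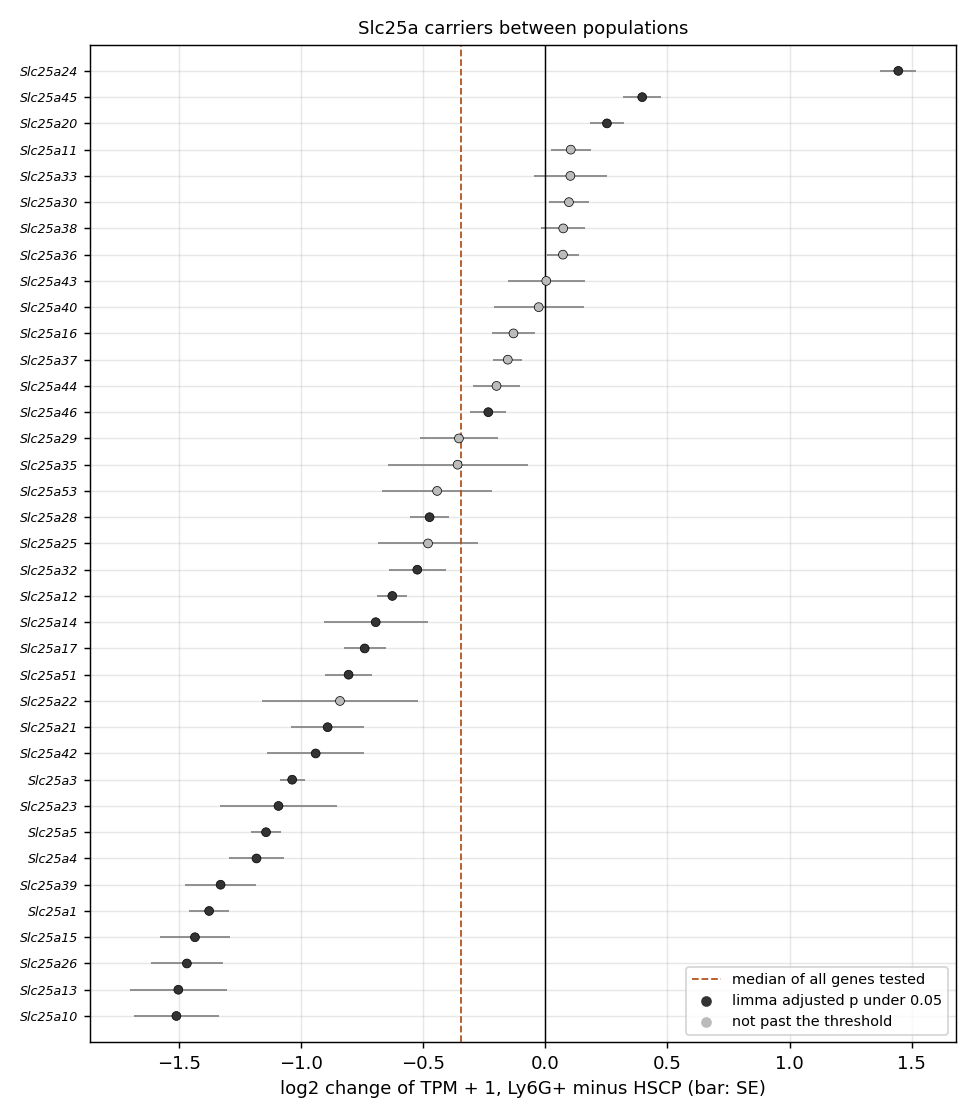
Log2 change of TPM + 1 from HSCP to Ly6G+ for 37 of the 38 members tested, with the SE as a bar, black where limma's adjusted p was under 0.05 and grey where not, and the median of all genes as a dashed line at -0.35. Slc25a24 stands alone at 1.45, and the lowest members lie near -1.5.

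Slc25a24 (chromosome 3, 109123149 to 109168457, plus strand) stood at 35.4 TPM with vehicle and 29.7 TPM with Mdivi-1 in HSCP, and in Ly6G+ at 92.8 and 88.3 TPM with vehicle and 89.1 and 89.8 TPM with Mdivi-1. All Ly6G+ libraries were above both HSCP libraries, with a log2 change of 1.45 (SE 0.073, limma adjusted p = 1.51e-05). Slc25a45, a member whose solute is less settled, stood at 45.5 and 38.4 TPM in HSCP against 59.4, 57.1, 56.4 and 49.0 TPM in Ly6G+ (log2 change 0.40, SE 0.078, limma adjusted p = 0.00368). Here too the groups did not overlap, though the lowest Ly6G+ value, 49.0, lay close to the higher HSCP value.

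Slc25a20, which carries acylcarnitines in for fatty acid oxidation, was the third member higher in Ly6G+, at 29.4 and 31.5 TPM in HSCP against 33.6, 34.2, 37.6 and 40.8 TPM in Ly6G+. The log2 change was 0.25 (SE 0.07, limma adjusted p = 0.0157), and it did not pass without the HSCP Mdivi-1 library (0.20, limma adjusted p = 0.101) or without the treatment covariate (limma adjusted p = 0.0558). The groups did not overlap. Markers of late neutrophils moved with these 3 members: 12 of 12 were higher in Ly6G+, where 22.2% of all genes tested were higher. Their summed TPM was 3114 and 2630 in HSCP against 31156 to 47745 in Ly6G+, with none at 0 in any library. Basophil and mast cell markers were higher in 5 of 8 cases and lower in 2. Monocyte and macrophage markers were higher in 5 of 10 and lower in 3 (6 and 2 after either scaling). Megakaryocyte markers were higher in 2 of 10 and lower in 4 (4 and 3 after either scaling), and B cell markers higher in 1 of 10 and lower in 1. The part of these lists in the carriers' difference was not tested.

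Carriers of organic acids and amino acids were among the lower members. Slc25a10, the dicarboxylate carrier (chromosome 11, 120491840 to 120499187, plus strand), stood at 30.8 and 32.4 TPM in HSCP and at 11.2, 13.1, 10.8 and 7.45 TPM in Ly6G+ (log2 change -1.51, SE 0.173, limma adjusted p = 0.000315). Slc25a1, the citrate carrier that supplies cytosolic acetyl groups (chromosome 16, 17925223 to 17928219, minus strand), stood at 41.7 and 41.5 TPM in HSCP and at 14.0, 15.9, 15.8 and 16.0 TPM in Ly6G+ (log2 change -1.38, SE 0.081, limma adjusted p = 2.38e-05). Both were higher in each HSCP library than in any Ly6G+ library. Of the 4 di- and tricarboxylate carriers, 3 were lower in Ly6G+, the third being the low-level oxodicarboxylate carrier Slc25a21 (-0.89). The remaining one, Slc25a11, held 87.5 and 88.5 TPM in HSCP and 103, 102, 92.6 and 82.8 TPM in Ly6G+, which overlap (log2 change 0.10, SE 0.081, limma adjusted p = 0.281). Slc25a11 was called higher once values were scaled by median-of-ratios (0.46, limma adjusted p = 0.00118).

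Slc25a13, the second aspartate/glutamate carrier, stood at 14.1 and 14.8 TPM in HSCP and at 5.05, 2.77, 5.20 and 5.30 TPM in Ly6G+ (log2 change -1.50, SE 0.199, limma adjusted p = 0.000607). Slc25a15, an ornithine carrier, stood at 7.59 and 9.43 TPM in HSCP and at 2.94, 2.41, 2.34 and 2.36 TPM in Ly6G+ (log2 change -1.43, SE 0.144, limma adjusted p = 0.00018). No Ly6G+ library reached the HSCP values of either gene. Slc25a12 stood at 102.5 and 123 TPM in HSCP and at 67.5, 70.4, 74.9 and 77.1 TPM in Ly6G+ (log2 change -0.63, SE 0.061, limma adjusted p = 0.000157). The mitochondrial glutamate carrier Slc25a22 held 24.6 and 30.9 TPM in HSCP and 17.3, 17.6, 8.66 and 18.6 TPM in Ly6G+ (log2 change -0.84, SE 0.319, limma adjusted p = 0.0578). It did not pass, with 1 Mdivi-1 library, at 8.66, far below the other Ly6G+ libraries. Without that library it was called lower (-0.57, limma adjusted p = 0.0035), as it was without the other Mdivi-1 library (-1.01, limma adjusted p = 0.0314) or without HSCP vehicle (-1.21, limma adjusted p = 0.0495).

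Several cofactor carriers were lower in Ly6G+. Slc25a26, the S-adenosylmethionine carrier, stood at 7.5 and 6.16 TPM in HSCP and at 1.56, 1.73, 1.97 and 2.06 TPM in Ly6G+ (log2 change -1.47, SE 0.147, limma adjusted p = 0.000174). Slc25a51, the NAD+ carrier, stood at 50.1 and 52.8 TPM in HSCP and at 32.6, 29.2, 29.2 and 25.4 TPM in Ly6G+ (log2 change -0.81, SE 0.098, limma adjusted p = 0.000405). In both genes the populations did not overlap. The coenzyme A carrier Slc25a42 (-0.94), the peroxisomal carrier Slc25a17 (-0.74) and the folate carrier Slc25a32 (-0.52) were also lower, and Slc25a16 was not called (-0.13). Slc25a32 did not pass after either scaling, and neither it nor Slc25a42 passed without the HSCP Mdivi-1 library (limma adjusted p = 0.0728 and 0.0662).

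For ADP/ATP and phosphate transport, Slc25a5 had a log2 change of -1.14 (SE 0.063, limma adjusted p = 1.88e-05) and Slc25a3 of -1.04 (SE 0.051, limma adjusted p = 1.39e-05). Slc25a4, the ADP/ATP carrier of heart and muscle, stood at 53.0 and 61.9 TPM in HSCP and at 21.7, 27.9, 25.4 and 24.1 TPM in Ly6G+ (log2 change -1.18, SE 0.113, limma adjusted p = 0.000144). In each of the 3 genes the HSCP libraries were highest. Slc25a5 shares much of its sequence with processed pseudogenes: 50.6% of its 31-mers occur in no other gene. The 7 such copies in the table were at 0.19 TPM or less in every library. Other genes that share its 31-mers, among them Gm5256 (11.1% of them) and Gm7560 (8.27%), were not in the table and have no value here. Slc25a33 (86.5%) and Slc25a35 (72.5%) were the other members under 90%, so the values of these 3 members, Slc25a5 included, are less certain.

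Iron and glutathione carriers were split. Slc25a39 stood at 84.4 and 109 TPM in HSCP and at 39.9, 43.4, 34.6 and 33.1 TPM in Ly6G+ (log2 change -1.33, SE 0.145, limma adjusted p = 0.000254), with no overlap. Its relative Slc25a40 held 3.46 and 3.37 TPM in HSCP and 3.48, 2.47, 3.14 and 4.48 TPM in Ly6G+, which overlap (log2 change -0.03, SE 0.184, limma adjusted p = 0.903). Slc25a37, mitoferrin-1, held 46.8 and 46.7 TPM in HSCP and 41.5, 42.6, 42.3 and 41.2 TPM in Ly6G+ (log2 change -0.15, SE 0.059, limma adjusted p = 0.0536). The direction of Slc25a37 turned with scaling, to 0.20 after median-of-ratios and 0.16 after upper-quartile scaling (limma adjusted p = 0.02 and 0.0485). Slc25a28, mitoferrin-2, stood at 40.0 and 35.8 TPM in HSCP and at 29.5, 26.9, 27.3 and 24.4 TPM in Ly6G+ (log2 change -0.47, limma adjusted p = 0.00167), and was not called after either scaling (-0.12 and -0.17). Slc25a38 held 28.7 and 30.5 TPM in HSCP and 27.7 to 34.1 TPM in Ly6G+ (log2 change 0.07, limma adjusted p = 0.485), and was called higher with median-of-ratios scaling (0.43 by limma, adjusted p = 0.00395).

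Other members called lower were Slc25a23 (-1.09), Slc25a14 (-0.69) and Slc25a46 (-0.23), the last a protein of the outer membrane. Slc25a23 was not called without the HSCP Mdivi-1 library (limma adjusted p = 0.0706). Slc25a14 was not called after either scaling or without HSCP vehicle (limma adjusted p = 0.252), either single Ly6G+ vehicle library (0.0576 and 0.0555) or Ly6G+ Mdivi-1 replicate 1 (0.0568). Slc25a46 lost its call after leaving out HSCP Mdivi-1, Ly6G+ vehicle replicate 1 or either Ly6G+ Mdivi-1 library (limma adjusted p = 0.16, 0.0613, 0.0738 and 0.0659). Its sign turned with scaling, to 0.11 after median-of-ratios and 0.07 after upper-quartile scaling. Of the 23 members called, 16 were called in the same direction in every alternative that tested them. Slc25a25, Slc25a35 and Slc25a53 were uncalled with all libraries and called lower without Ly6G+ vehicle replicate 2, HSCP Mdivi-1 and Ly6G+ vehicle replicate 2, in that order (limma adjusted p = 0.00857, 0.0283 and 0.0481).

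Summed over all 47 members, the family's level in HSCP was 2122 TPM with vehicle and 2337 TPM with Mdivi-1. In Ly6G+ it was 1346 and 1331 TPM with vehicle and 1345 and 1316 TPM with Mdivi-1. The mean was 2230 ± 152 in HSCP (SD, n = 2) and 1335 ± 14.3 in Ly6G+ (SD, n = 4), a log2 ratio of -0.74, which was -0.38 after median-of-ratios and -0.42 after upper-quartile scaling. The groups did not overlap, and the 2-sided exact permutation p of 0.0667 is the smallest that 2 against 4 libraries allow. Other markers moved with the lower carriers, where 50.3% of all genes tested were lower. Of the primary granule genes 8 of 8, of the proliferation genes 12 of 12 (8 and 9 after the scalings) and of the erythroid genes 13 of 14 were lower in Ly6G+, with summed TPM of 15031 and 16194.5 against 1993 to 2134, 2399 and 2674 against 1280 to 1373, and 5286 and 5671 against 2578 to 3350. Stem and progenitor markers were lower in 9 of 10 cases, at 695.5 and 699 TPM against 126 to 165 TPM. No marker in these 4 lists was at 0 in any library, and their part in the carriers' difference was not tested.

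The choice of isoform within sets of close relatives was described as each gene's share of its set's summed TPM. Among ATP-Mg/phosphate carriers, Slc25a24 held 71.0% and 65.3% in HSCP and 92.3%, 87.0%, 90.9% and 92.7% in Ly6G+. Slc25a25 held 20.8% and 26.2% in HSCP and 6.28% to 10.7% in Ly6G+, and Slc25a23 held 8.16% and 8.47% against 0.956% to 2.34%. The populations did not overlap for any of the 3, and the share of Slc25a24 was 22.5 percentage points higher in Ly6G+ (2-sided exact permutation p = 0.0667). Behind the shares, Slc25a25 held 10.4 and 11.9 TPM in HSCP and 6.08 to 10.8 TPM in Ly6G+ (log2 change -0.48, limma adjusted p = 0.0745), and Slc25a23 held 4.07 and 3.85 TPM against 0.962 to 2.38 TPM.

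**Figure D3:**
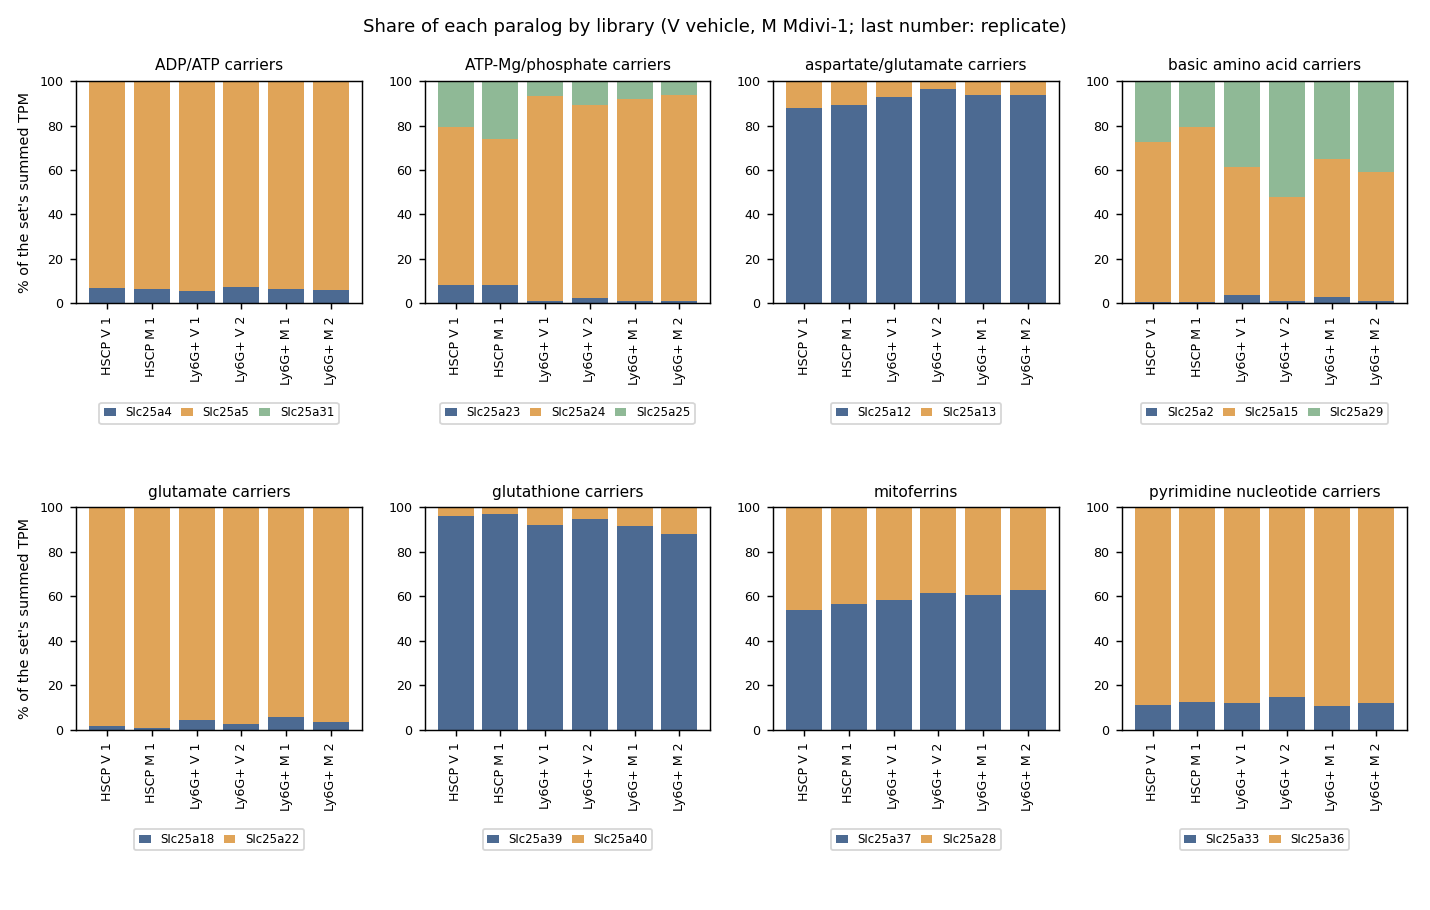
Stacked bars of each gene's percentage of its set's summed TPM, with 1 bar per library (V vehicle, M Mdivi-1, then the replicate) and 1 panel for each of 8 sets. The Slc25a24 part of the ATP-Mg/phosphate panel is larger in all 4 Ly6G+ bars than in both HSCP bars, and the ADP/ATP panel is nearly the same in all 6.

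Among basic amino acid carriers, Slc25a15 held 71.9% and 79.0% in HSCP and 57.4%, 46.8%, 62.1% and 57.8% in Ly6G+, and Slc25a29 took most of the rest, with 27.6% and 20.5% against 35.1% to 52.1%. Slc25a29 itself held 2.91 and 2.45 TPM in HSCP and 1.32 to 2.68 TPM in Ly6G+ (log2 change -0.35, limma adjusted p = 0.087). Slc25a2, another ornithine carrier, was at 0.19 TPM or less throughout. The populations did not overlap in the share of Slc25a15, which was 19.4 points lower in Ly6G+ (change -19.4, 2-sided exact permutation p = 0.0667).

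Smaller differences were seen in 4 sets. Slc25a12 held 88.6% ± 0.944 of the aspartate/glutamate pair in HSCP (SD, n = 2) and 94.1% ± 1.44 in Ly6G+ (SD, n = 4), and Slc25a37 held 55.3% ± 1.9 and 60.8% ± 1.78 of the mitoferrins. Slc25a22 held 98.7% ± 0.567 and 95.9% ± 1.24 of the glutamate carriers, with Slc25a18 at 0.81 TPM or less in every library. In these 3 sets the populations did not overlap (2-sided exact permutation p = 0.0667 in each). Slc25a39 held 96.1% and 97.0% of the glutathione pair in HSCP and 91.97%, 94.6%, 91.7% and 88.1% in Ly6G+, where the groups also did not overlap for the shares but the p was larger (2-sided exact permutation p = 0.133).

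In the remaining sets the same isoform led by a like margin. Slc25a5 held 93.3% ± 0.074 of the ADP/ATP carriers in HSCP (SD, n = 2) and 93.6% ± 0.77 in Ly6G+ (SD, n = 4), a difference of 0.265 points (2-sided exact permutation p = 0.667). Slc25a36, a pyrimidine nucleotide carrier, held 88.0% ± 0.956 and 87.6% ± 1.81 of its pair with Slc25a33 (2-sided exact permutation p = 0.8). Its level was 24.8 and 24.6 TPM in HSCP and 27.0, 25.7, 25.7 and 25.8 TPM in Ly6G+ (log2 change 0.07, SE 0.066, limma adjusted p = 0.353). Slc25a33 held 3.16 and 3.56 TPM in HSCP and 3.06 to 4.52 TPM in Ly6G+. Slc25a36 was called higher with median-of-ratios scaling (0.42 by limma, adjusted p = 0.00162), as was Slc25a30 (10.6 and 12.9 TPM in HSCP, 10.7 to 14.7 TPM in Ly6G+, log2 change 0.10 unscaled and 0.43 scaled), and Slc25a33 was not.

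With Mdivi-1, no carrier passed the test in Ly6G+ cells. The test was limma on the 4 Ly6G+ libraries, over 11775 genes, of which 2.46% were called higher and 4.24% lower with Mdivi-1. Of the 38 members, 0 were called higher, 0 lower, and 4 had an unadjusted p under 0.05. Among all 11775 genes tested, 3026 had an unadjusted p under 0.05, a larger share than among the members. The members' median log2 change was -0.03 against -0.05 for all genes, with 15 members higher and 23 lower on average and 22 with a change under 0.2 in size. After median-of-ratios and upper-quartile scaling, 51.8% and 50.3% of all calls were higher, against 36.8% without scaling, and 1 member was called, Slc25a30. Over all genes tested, 393 of 11768 and 380 of 11770 were then higher, and 366 and 376 lower.

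Slc25a30, a carrier related to the uncoupling proteins (chromosome 14, 75760117 to 75787037, minus strand), stood at 10.8 and 10.7 TPM in Ly6G+ vehicle and at 14.7 and 14.6 TPM in Ly6G+ Mdivi-1. The arms did not overlap, with a log2 change of 0.41 (SE 0.08, limma adjusted p = 0.0502). It was called with a filter of 5 TPM (limma adjusted p = 0.0399), a pseudocount of 5 (0.0496), median-of-ratios scaling (0.0385) and upper-quartile scaling (0.0392). It was not called with a fit of all 6 libraries, a constant prior, no filter on low values, a pseudocount of 0.1 or the replicate number as a block. In HSCP it was 10.6 TPM with vehicle and 12.9 TPM with Mdivi-1.

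The other members with an unadjusted p under 0.05 were Slc25a39, Slc25a11 and Slc25a20. Slc25a39 went from 39.9 and 43.4 TPM with vehicle to 34.6 and 33.1 TPM with Mdivi-1 (log2 change -0.29, SE 0.073, limma adjusted p = 0.0886), and Slc25a11 from 103 and 102 to 92.6 and 82.8 TPM (log2 change -0.22, SE 0.073, limma adjusted p = 0.144). Slc25a20 went from 33.6 and 34.2 to 37.6 and 40.8 TPM (log2 change 0.20, SE 0.071, limma adjusted p = 0.161). In each of the 3 the arms did not overlap, which was so in 20 of the 38 members, and none passed the adjustment. The share of all genes without overlap was not counted. Slc25a22 was called lower only when Ly6G+ Mdivi-1 replicate 2 was left out, which leaves the lone value of 8.66 TPM in that arm (log2 change -0.94, limma adjusted p = 0.0405).

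**Figure D4:**
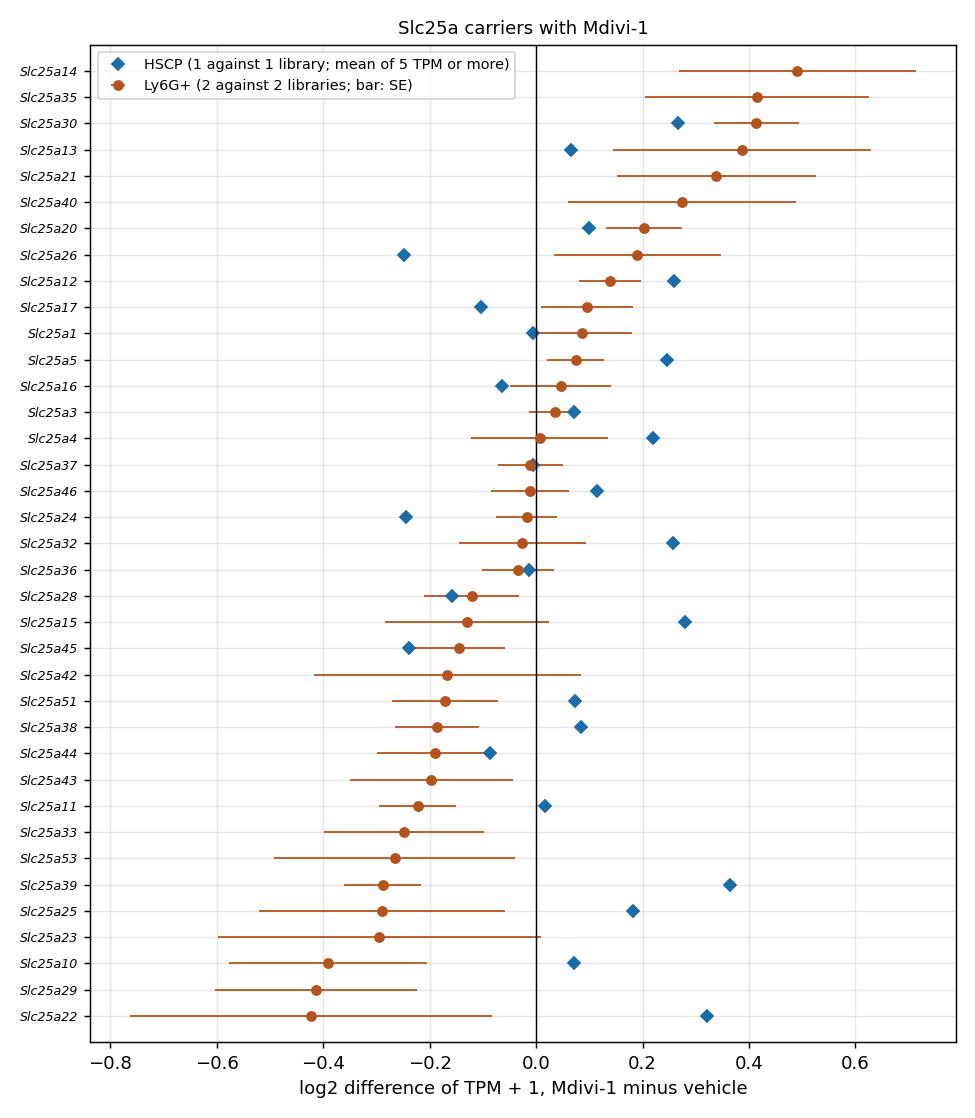
Log2 difference of TPM + 1, Mdivi-1 minus vehicle, for 37 of the 38 members tested in Ly6G+ (orange circles, bar SE, 2 against 2 libraries) and for 27 of the 28 members considered in HSCP (blue diamonds, 1 against 1 library, no error). Most differences lie within 0.4 of 0. Among members with opposite signs, Slc25a39 lies at 0.36 in HSCP and -0.29 in Ly6G+, and Slc25a22 at 0.32 and -0.42.

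Slc25a5 and Slc25a3, the most abundant carriers, moved little in Ly6G+, as did Slc25a4 and Slc25a24. Slc25a11, which ranked 3 in Ly6G+, and Slc25a39, which ranked 8, had the larger changes of -0.22 and -0.29 given above. Slc25a5 had a log2 change of 0.07 (SE 0.054, limma adjusted p = 0.442), Slc25a3 of 0.04 (SE 0.049, limma adjusted p = 0.698), Slc25a4 of 0.01 (SE 0.129, limma adjusted p = 0.979) and Slc25a24 of -0.02 (SE 0.057, limma adjusted p = 0.88). Slc25a12 stood at 67.5 and 70.4 TPM with vehicle and at 74.9 and 77.1 TPM with Mdivi-1 (log2 change 0.14, SE 0.059, limma adjusted p = 0.221). The family's summed TPM had a mean of 1339 ± 10.9 in the vehicle arm and 1331 ± 20.7 in the treated arm (SD, n = 2 each), and the arms overlapped (2-sided exact permutation p = 0.667, where 0.333 is the smallest that 2 against 2 libraries allow). No isoform share of the 8 sets differed between arms by more than 7.83 points, the difference for Slc25a15 (2-sided exact permutation p = 0.333).

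Several marker lists moved with treatment in the same Ly6G+ libraries, where 2.46% of all genes tested were called higher and 4.24% lower. Late neutrophil genes were higher with Mdivi-1 in 11 of 12 cases (summed TPM 31156 and 31226 with vehicle, 47499 and 47745 with Mdivi-1). B cell genes were lower in 8 of 10 (143 and 143.5 against 23.3 and 23.8), megakaryocyte genes in 9 of 10 (285 and 289 against 114 and 129), and basophil and mast cell genes in 7 of 8 (686 and 701 against 386 and 398.5). Erythroid genes were lower in 4 of 14 (3265 and 3350 against 2578 and 2615) and stem and progenitor genes in 2 of 9 tested (162 and 165 against 131 and 126). After either scaling, 3 erythroid, 1 stem and progenitor and 6 basophil and mast cell genes were lower, and 1 basophil and mast cell gene was higher. Of 8 primary granule and 12 proliferation genes none was called, and of 10 monocyte and macrophage genes 1 was higher and 1 lower. None of these genes was at 0 in any library. The part of these shifts in the carriers' values was not tested.

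In HSCP, each arm held 1 library, so the differences have no replicate check and no p-value. A difference of at least 0.5 in log2(TPM + 1) at a mean of at least 5 TPM was counted as past the fold. Of the 28 members considered, 0 were past it in either direction, and of the 9482 genes considered 1.94% were past it higher and 3.28% lower. The members' differences ran from -0.25 to 0.36, with 18 above and 10 below 0, and a median of 0.07 against 0.03 for all genes. The highest were Slc25a39 (84.4 and 109 TPM in vehicle and Mdivi-1, difference 0.36), Slc25a22 (24.6 and 30.9 TPM, 0.32) and Slc25a15 (7.59 and 9.43 TPM, 0.28). The lowest were Slc25a26 (7.5 and 6.16 TPM, -0.25), Slc25a24 (35.4 and 29.7 TPM, -0.24) and Slc25a45 (45.5 and 38.4 TPM, -0.24). The summed TPM was 10.1% higher with Mdivi-1. In the same libraries Ly6g stood at 187 and 90.1 TPM. The summed TPM was lower with Mdivi-1 for megakaryocyte markers (354.5 and 176, median log2 difference -1.06 over 8 genes), B cell markers (77.8 and 49.6, median -1.02 over 4) and late neutrophil markers (3114 and 2630, where the median over 11 genes was 0.01). It was also lower for basophil and mast cell markers (396 and 318, median -0.41 over 6). Higher sums with Mdivi-1 were seen for proliferation genes (2399 and 2674, median 0.17 over 12) and primary granule genes (15031 and 16194.5, median 0.12 over 8). The same held for erythroid markers (5286 and 5671, median 0.10 over 13). Sums changed little for stem and progenitor (695.5 and 699, median -0.15 over 9) and monocyte and macrophage markers (844 and 845, median -0.15 over 8). The part of these lists in the carriers' differences was not tested. Slc25a39 differed in opposite directions in HSCP and Ly6G+ (0.36 and -0.29). So did other members, among them Slc25a22 (0.32 and -0.42), Slc25a15 (0.28 and -0.13) and Slc25a26 (-0.25 and 0.19). These opposite directions were not tested.

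Genes that work beside the carriers were taken from a list of 93, of which 92 were in the table. Between populations 84 were tested, and 13 were higher in Ly6G+, 60 lower and 11 not called, where 22.2% of all genes tested were higher and 50.3% lower. The median was -0.63, against -0.35 for all genes. After median-of-ratios and upper-quartile scaling, 18 of 85 were higher under each, 43 and 46 were lower, and the medians were -0.26 and -0.31. Over all genes tested, 4096 of 12323 and 3921 of 12329 were then higher, and 4253 and 4518 lower. Heme synthesis genes were lower in 11 of 12 cases (10 after either scaling), led by Alad (63.6 ± 0.907 and 19.4 ± 2.93 TPM, log2 change -1.67) and Alas1, the first enzyme of the pathway (405 ± 23.8 and 164 ± 8.83 TPM, -1.30). Iron-sulfur cluster assembly genes were lower in 11 of 12 (9 after either scaling), led by Hspa9 (-1.70) and Fdx1 (-1.65), and mitochondrial folate genes in 6 of 7 (5 after either), led by Shmt2 (157 ± 36.1 and 37.7 ± 5.36 TPM, -2.02). All 3 outer membrane channels were lower, with Vdac1 at -0.96, though Vdac2 had the smallest change (-0.30) and only 2 of the 3 stayed called after scaling. Of the 6 genes of citrate export and use tested, 4 were lower (2 after median-of-ratios and 3 after upper-quartile scaling), led by Fasn, fatty acid synthase (-2.03), and Idh1 was higher (0.46).

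Among other transporters, mostly of the inner membrane, 7 of 20 were higher and 10 lower. The 10 include Mtch1 (-0.22) and Mtch2 (-0.62), which lie in the outer membrane. After either scaling 8 of 21 were higher and 6 lower, with the median turning from -0.22 to 0.11 and 0.07. Sfxn5, a sideroflexin, rose from 2.69 ± 0.28 TPM in HSCP to 23.6 ± 3.27 TPM in Ly6G+ (log2 change 2.73, limma adjusted p = 1.37e-05), while Sfxn1, the mitochondrial serine carrier, fell by 1.43 on the log2 scale (63.4 ± 6.25 and 22.8 ± 0.795 TPM). Abcb8 was lower (-1.99) and Mcub, a subunit that restrains the calcium uniporter, was higher (1.36). Arg2, mitochondrial arginase, which yields the ornithine that Slc25a15 carries, stood at 2.47 ± 0.148 TPM in HSCP and 42.6 ± 11.9 TPM in Ly6G+ (SD, n = 2 and 4; log2 change 3.61, limma adjusted p = 8.15e-06). Ucp2, an uncoupling protein of the same protein family whose symbol falls outside the rule, was chosen after its values were seen. It stood at 745 and 695 TPM in HSCP and at 1152, 1092, 1074 and 1075 TPM in Ly6G+ (log2 change 0.61, limma adjusted p = 7.8e-05). It was above Slc25a5 in every Ly6G+ library and slightly above it in HSCP vehicle (Slc25a5 at 734 TPM), but below it in HSCP Mdivi-1 (871 TPM).

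With Mdivi-1 in Ly6G+, 82 of these genes were tested, and 4 were higher, 3 lower and 75 not called, where 2.46% of all genes tested were higher and 4.24% lower. Arg2 went from 33.2 and 31.4 TPM to 52.3 and 53.4 TPM (log2 change 0.70, limma adjusted p = 0.00978) and Oat, ornithine aminotransferase, from 40.8 and 38.3 to 53.3 and 53.5 TPM (0.43, limma adjusted p = 0.0314). Hspa9 (0.37) and Iscu (0.40), both of iron-sulfur cluster assembly, were the others that rose. Cmpk2, a mitochondrial nucleotide kinase, fell by 0.74 on the log2 scale, from 74.2 and 75.6 to 46.0 and 42.9 TPM (limma adjusted p = 0.0088). The carnitine acetyltransferase Crat (-0.48) and the folate enzyme Mthfd2 (-0.38) were also lower. In each of these 7 genes the test passed at a limma adjusted p of 0.0482 or less, and Mthfd2 did not pass after either scaling (limma adjusted p = 0.0667 and 0.0687).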

How the data were processed

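RNA sequencing was done on 6 libraries of mutant mouse marrow cells. The authors deposited 1 table of TPM per gene. Per the submitters' processing notes, bcl2fastq, CASAVA 1.8 and kallisto were used with build mm10; the sources used here give no kallisto version, annotation or strand setting. Read depth cannot be taken from TPM, and intervals that need it were left out. Symbols and positions came from GENCODE M21 (27458 genes matched, 1529 not). A count test was planned, and since the values are TPM its fallback replaced it. This was limma 3.58.1 (R 4.3.3) with a trended, robust prior on log2(TPM + 1), for genes reaching 1 TPM in 2 or more libraries, with Benjamini-Hochberg adjustment over all genes at 0.05, leaving 2 (Ly6G+ treatment) and 3 (populations) residual degrees of freedom. The scripts were tested on simulated data. Sums and shares used exact permutation tests. The members and lists were chosen with earlier results of these data known. Named were the 10 most abundant members, up to 6 per direction called between populations at 5 TPM or more, the 8 sets of relatives, and at most 4 called partner genes per list. Other members named were chosen after their values were seen. One member is counted in the totals but is not reported here by itself.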

Additional observations from a re-analysis of the deposited data

Results flagged for a closer look

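In 5 of 38 members, 1 of the 4 Ly6G+ libraries, pooled over both treatments, stood apart from the other 3 by Dixon's test. Chance flags about 1 in 20 groups, and the 4 libraries include 2 treatment arms. Slc25a22, the glutamate carrier, was at 8.66 TPM in Ly6G+ Mdivi-1 replicate 1, below the others. Slc25a1, the citrate carrier, was at 14.0 TPM in Ly6G+ vehicle replicate 1, below the others. Slc25a13, an aspartate/glutamate carrier, was at 2.77 TPM in Ly6G+ vehicle replicate 2, below the others. Slc25a15, an ornithine carrier, was at 2.94 TPM in Ly6G+ vehicle replicate 1, above the others. Slc25a36, a pyrimidine nucleotide carrier, was at 27.0 TPM in Ly6G+ vehicle replicate 1, above the others.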

How the results depend on the processing

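Treatment calls in Ly6G+ sat at the threshold: 1 member was called higher with a filter of 5 TPM, a pseudocount of 5, median-of-ratios scaling or upper-quartile scaling, and leaving out 1 library at a time gave 0 to 1 lower. Between populations, 8 members were higher after either scaling. Slc25a37 turned to 0.20 and 0.16 and Slc25a46 to 0.11 and 0.0664 after median-of-ratios and upper-quartile scaling. The log2 ratio of summed TPM between populations was -0.38 and -0.42 after these scalings and -0.55 without Slc25a5. In Ly6G+ the ratio with Mdivi-1 was 0.0559 and 0.0517 after the scalings and -0.0398 without Slc25a5. In HSCP, 1 member (Slc25a35, 2.46 and 1.05 TPM) was past the fold, lower, at a mean of at least 1 TPM. Scalings that replace TPM's common total shifted the values by its own construction; the cause of other changes was not tested. Of single members' alternatives, 482 of 522 kept call and direction between populations and 471 of 476 with treatment, counting 16 and 23 where an uncalled member changed sign. With the replicate number as a block, 0 members were called higher and 0 lower, and over all genes 152 and 173 (290 and 499 without it), with 1 residual degree of freedom. Same-numbered libraries did not vary together (r = -0.03 over 11775 genes), so the numbers were not taken as pairs. Each arm has 1 or 2 libraries, which limits precision.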
